A study of Danio rerio with 2 samples.

Results

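Neural progenitors and radial glia were chosen by their UMI counts from the cells sorted from 4 dpf zebrafish larvae, where a UMI stands for 1 captured transcript. A member cell had at least 3 UMIs of *fabp7a*, a fatty acid binding protein gene of radial glia, and at least 1 UMI summed over *her4.1*, *her12* and *sox2*. It also had 0 UMIs of the neuronal gene *elavl3*, the otolith matrix gene *stm* under 500 CPM, the usual counts-per-million scale, and under 1% of its UMIs from the pancreatic genes *prss1*, *prss59.1*, *prss59.2* and *ctrb1*. The rule found 312 of 17385 kept cells in the control library and 127 of 8322 in the mutant library, or 439 of 25707 in all. A barcode was kept with 500 genes or more and no more than 20% of its UMIs from mitochondrial genes.

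All larvae carried Tg(Brn3c:mGFP), a reporter that puts membrane GFP in hair cells, and GFP-positive cells were collected by FACS, so the members are cells that the sort was not aimed at. The control library came from larvae labelled Wild-type and the mutant library from larvae labelled hsd17b7-KO, a frameshift deletion line made with CRISPR/Cas9. No drug is named for the sorted larvae in the sources used here. *hsd17b7* encodes an enzyme of cholesterol synthesis. There was 1 library per genotype and the number of larvae behind each is not given in the sources used here, so no difference between the libraries could be tested against variation between animals, and the genotype cannot be told apart from anything else that differed between the libraries.

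Radial glia line the ventricles of the developing and adult fish brain and spinal cord, where they act as progenitors and as supporting glia, and Müller glia take this place in the retina. In fish they clear glutamate and GABA with transporters that astrocytes use in mammals. Notch signalling holds progenitors back from becoming neurons: it switches on repressors of the Her and Hey families, which keep proneural factors low.

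The members were 1.79% of kept control cells (exact 95% interval 1.60 to 2.00) and 1.53% of kept mutant cells (1.27 to 1.81). A member had a median of 9680 UMIs and 2810.5 genes in the control library and 9242 UMIs and 2382 genes in the mutant library, so depth was similar. Globin RNA was not: it made up a median of 0.240% of a control member's UMIs (0.0583 to 35.0%), and a median of 0 in mutant members (at most 0.0674%). The control library also held 2725 kept cells outside the members with at least 50% globin UMIs, and the mutant library 0. Among kept cells with under 5% globin UMIs, the members were 2.74% (control) and 1.53% (mutant). The libraries shared 49 barcodes, none of them between members. All intervals here cover counting error only.

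At the edge of the rule, 12 control and 9 mutant members had exactly 3 *fabp7a* UMIs, and 22 control and 19 mutant cells with 2 met every other condition. The median member had 30 *fabp7a* UMIs in control and 22 in mutant cells. Cells that should lack *fabp7a* also held some. Of hair cells, taken as kept cells outside the members with at least 3 UMIs each of *otofb* and *myo6b*, 13.5% (control) and 11.7% (mutant) had at least 1 *fabp7a* UMI, at median depths of 14545 and 12298 UMIs. Of liver cells, taken as kept cells outside the members with at least 1% of their UMIs from 5 liver genes, 18.1% and 54.5% had at least 1, at median depths of 24432 and 24708 UMIs.

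The label was checked against the other kept cells of each library, as a description, since the rule chose the cells. Of 1943 genes ranked, the 3 that stood out most were transporter genes. The glutamate transporter gene *slc1a3b* stood at 103 CPM in control members and 1.15 CPM in the other control cells, and at 95.3 and 0.512 CPM in the mutant library. The glutamate transporter gene *slc1a2b* stood at 1005 and 11.5 CPM in the control and at 384 and 5.10 CPM in the mutant library. The GABA transporter gene *slc6a1b* stood at 284 and 3.25 CPM and at 448 and 6.56 CPM. These levels are sums over members and came from only part of them. At least 1 UMI of *slc1a3b* was found in 41.99% of control and 24.41% of mutant members. For *slc1a2b* the shares were 63.46% and 22.83%, and for *slc6a1b* 24.36% and 11.02%. The rest of the leading 20, of which *fabp7a* and *her12* are genes of the rule, were *fgfbp3*, *atp1b4*, *fabp7a*, *olig2*, *ntn1b*, *nr2e1*, *her12*, *si:dkey-238o13.4*, *ptgdsb.2*, *atp1a1b*, *gfap*, *acsl2*, *crabp1a*, *sb:cb81*, *sox3*, *zgc:153405* and *si:ch73-265d7.2*. Among them *nr2e1*, *sox3* and *olig2* encode transcription factors of neural progenitors, and *atp1b4* and *atp1a1b* are named as subunits of sodium pumps. With globin-rich cells left out of the comparison, 17 of the 20 genes were again among the leading 20.

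The members were not 1 kind of cell. Clustering on variable genes, leaving out the genes of the rule and the globins, gave 14 groups, numbered by size. A gene of a marker list is called raised in a group where it stood at 20 CPM or more and at least 4-fold above the other members. The groups and their genes come from the same counts and are given without a test. Groups 2 (50 cells) and 6 (34 cells) held control cells only, and 0 of 127 mutant members allows a share of up to 2.36% at a limit of 3 cells, while the exact interval drawn in the plot of groups ends at 2.86%. With 1 library per genotype such a group may belong to the library and not be a type of cell. Group 2 kept its 50 cells in 1 group at a finer clustering, but at a coarser one it was joined with group 12 into a group of 58 control and 4 mutant cells. Group 6 kept its 34 cells together at the coarser clustering and 23 of them at the finer one. Group 5 held 12 control members (3.85%, 2.00 to 6.62) and 24 mutant members (18.9%, 12.5 to 26.8), and group 7 held 29 (9.29%, 6.31 to 13.1) and 3 (2.36%, 0.490 to 6.75). The largest, group 1, held 53 (17.0%) and 29 (22.8%), and their exact intervals overlap. At the finer clustering, 36 of its 82 cells formed a group of 10 control and 26 mutant cells, and the rest were placed elsewhere. Group 1 may therefore hold more than 1 kind of cell, in unlike shares in the libraries. So may group 5, of which 21 of 36 cells formed a group of 12 control and 9 mutant cells there.

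**Figure D1:**
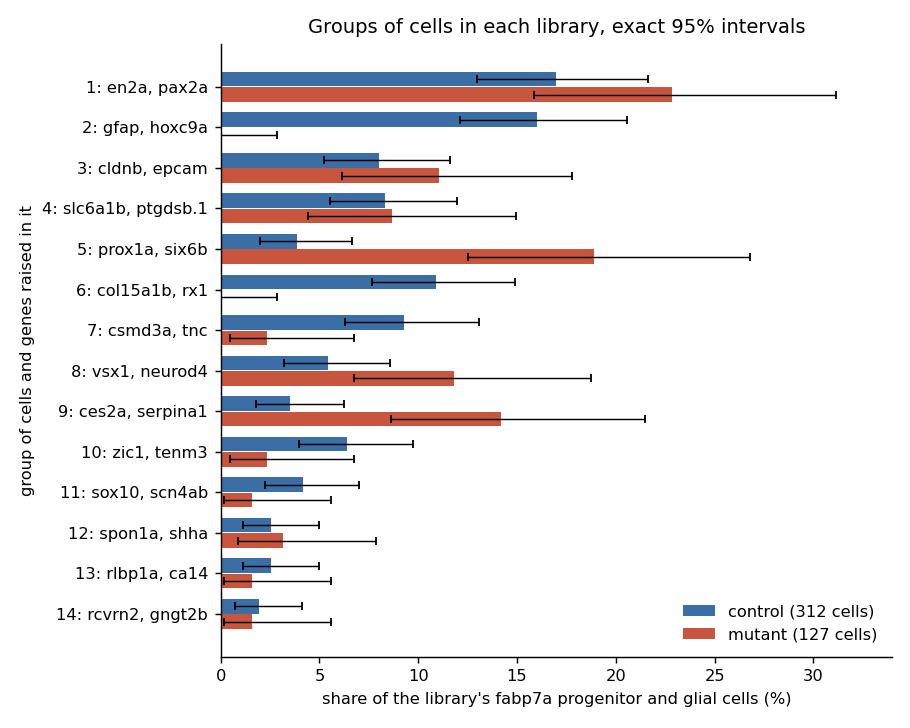
Share of each library's members (%) in each of the 14 groups, control (312 cells) and mutant (127 cells), with exact 95% intervals. Groups 2 and 6 hold 50 and 34 control cells and no mutant cell, while group 5 holds 12 control and 24 mutant cells.

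Groups 3, 9, 11 and 14 went against the label at least in part, each with most genes of a non-neural marker list raised. Group 3 (25 control and 14 mutant cells) had 12 of 15 hair cell genes, 7 of 8 epidermal genes and 8 of 13 supporting cell genes raised. Its hair cell gene *otofb*, which encodes otoferlin, stood at 291 CPM (6 of 25 control cells) and 1041 CPM (7 of 14 mutant cells), and its *mGFP* at 148 and 583 CPM. Group 9 (11 control and 18 mutant cells) had 5 of 5 liver genes raised and a median of 32742 UMIs. There the apolipoprotein gene *apoa2* stood at 19852 CPM (control) and 69363 CPM (mutant), and *fabp7a* at 646 and 493 CPM. Group 11 (13 control and 2 mutant cells) had 5 of 6 pigment genes raised, but 1 cell held 79.1% of its *tyrp1b* UMIs and 1 cell 87.6% of its *pmela* UMIs. *sox10*, a neural crest and glial factor gene, was found in 13 of 15 cells. Group 11 also had 4 of 10 oligodendrocyte lineage genes raised, *sox10* among them, and only the pigment list places it here. Group 14 (6 control and 2 mutant cells) had 4 of 7 endothelial genes raised and was led by the cone opsin genes *opn1lw2* and *opn1mw1*, each found in 1 cell. Photoreceptor and synaptic genes were spread wider in it, with *rcvrn2* in 5 of 8 cells, *rs1a* and *sypb* in 7 and *syt5b* in 8. It also had 4 of 16 neuron genes and 3 of 17 proneural genes raised, and only the endothelial list places it here. These groups held 55 of 312 control members (17.6%, 13.6 to 22.3) and 36 of 127 mutant members (28.3%, 20.7 to 37.0). The part of doublets and free RNA in them was not tested. The other 10 groups are called neural groups below, and 8 of them held cells of both libraries (173 control and 91 mutant cells). This division was made after the groups were seen.

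Glial genes were held by several groups that differed from each other. Group 2 carried *gfap*, the intermediate filament gene of radial glia, at 15072 CPM in 50 of 50 cells, and *vim*, a related filament gene, at 4461 CPM. It was led by *hoxc9a* (142 CPM), *rgs5a* (536 CPM), *rnf220b* (442 CPM), *hoxc6b* (195 CPM) and *hoxb9a* (278 CPM), of which 3 are Hox genes that mark positions along the trunk. In all, 8 of 16 hindbrain and spinal genes were raised there.

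Group 4 (26 control and 11 mutant cells) had 9 of 18 radial glia genes raised but not *gfap*, which stood at 43.9 CPM in its control cells and 27.0 CPM, from 3 UMIs, in its mutant cells. Group 4 also had 5 of 10 ventral and floor plate genes and 4 of 9 Müller glia genes raised. Among its leading genes were *slc6a1b*, at 4437 CPM in 37 of 37 cells, and the prostaglandin D synthase gene *ptgdsb.1*, at 1941 CPM in 23 cells. The pituitary hormone genes *tshba* and *cga* ranked higher still, each with all of its UMIs in 1 cell. Group 7 had 9 of 18 radial glia genes raised too, with *slc1a2b* at 5256 CPM and *slc6a1b* at 2239 CPM in its 29 control cells and *gfap* at 13.3 CPM. It was led by *csmd3a* (855 CPM in 28 of 32 cells) and *carmil3* (531 CPM in 21 cells) once *gh1*, *defbl1* and *apodb* are set aside, for which 1 cell held 99.8% of the UMIs or all of them. Its cells were shallow, at a median of 4633.5 UMIs.

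Group 12 (8 control and 4 mutant cells) had 6 of 10 ventral and floor plate genes and 7 of 10 dorsal and roof plate genes raised. At the finer clustering its best match held 6 of its 12 cells, so it may hold more than 1 kind of cell. The floor plate signal gene *shha*, found in 6 of the 12 cells, stood at 416 CPM (control) and 824 CPM (mutant). There *gfap* stood at 6643 and 371 CPM, with 309 and 207 UMIs in single control cells. Group 13 (8 control and 2 mutant cells) had 7 of 9 Müller glia genes raised, and *rlbp1a*, a retinoid binding protein gene of Müller glia, stood at 7434 CPM in 10 of 10 cells. The ammonium transporter gene *rhbg* (1447 CPM) and the carbonic anhydrase gene *ca14* (969 CPM) led it as well.

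Counted by cell and without the groups, *gfap* and *slc6a1b* were mostly held by different cells. In the control library 84 members had at least 3 UMIs of *gfap* but not of *slc6a1b*, 51 had at least 3 of *slc6a1b* but not of *gfap*, and 4 had at least 3 of both. In the mutant library the counts were 4, 13 and 0. The control *gfap* cells carried *hoxb8a*, *hoxb9a*, *hoxc6b* and *hoxc9a* at a summed 513 CPM and the control *slc6a1b* cells at 2.78 CPM, from 1 UMI. Of these genes *hoxb9a*, *hoxc6b* and *hoxc9a* are leading genes of group 2, whose 50 cells all held *gfap*. The Hox contrast therefore repeats what set that group apart. The glutamine synthetase gene *glula* went the other way, at 753 CPM in the *gfap* cells and 5279 CPM in the *slc6a1b* cells. So did *slc1a2b*, at 867 and 5866 CPM. The repressor gene *her12*, a gene of the rule, stood at 1884 CPM in the *gfap* cells and 211 CPM in the *slc6a1b* cells. The 13 mutant *slc6a1b* cells held *glula* at 4436 CPM and *slc1a2b* at 3977 CPM, both within 1.5-fold of the control *slc6a1b* cells.

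**Figure D2:**
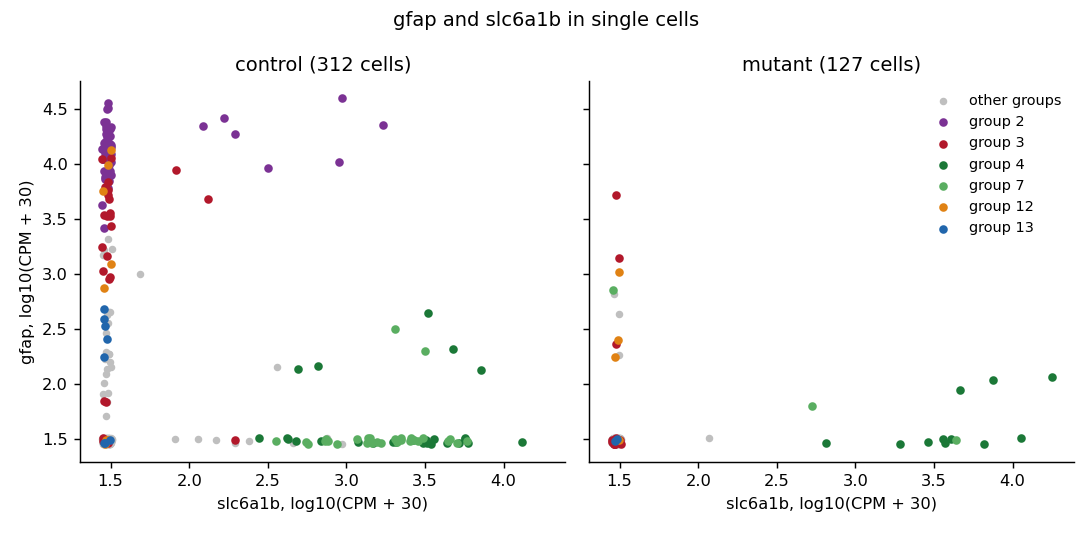
Each point is 1 member cell, with *slc6a1b* on the horizontal and *gfap* on the vertical axis, both as log10(CPM + 30), for the control (312 cells) and mutant (127 cells) libraries, coloured by group and shifted slightly at random so that points can be told apart. High *gfap* and high *slc6a1b* mostly lie in different cells, and 4 control cells and 0 mutant cells had at least 3 UMIs of both.

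The remaining neural groups carried progenitor genes of the brain and retina. Group 1 had 5 of 10 genes of the midbrain and its boundary with the hindbrain raised, namely *pax2a*, *pax5*, *en1b*, *en2a* and *en2b*, and no radial glia gene. These genes marked only some of its cells and differed between the libraries. The boundary gene *en2a* stood at 69.7 CPM in 9 of 53 control cells and at 185 CPM in 9 of 29 mutant cells. Another boundary gene, *pax2a*, ran the other way, at 223 CPM in 14 control cells and 15.9 CPM in 4 mutant cells.

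Retinal progenitor genes were raised in groups 5 and 6, with 3 of 9 in group 6, and also in groups 8 and 13, with 4 of 9 in each. Group 6 (34 control cells) held *rx1*, a transcription factor gene of the early retina, at 246 CPM in 30 cells, and its leading genes included *ggctb* and *col15a1b*. Group 5 had 5 of 9 such genes raised and was led by *atoh7*, *prox1a*, *si:dkey-238o13.4*, *cldn5b* and *foxg1b*, but *atoh7* was found in 4 of 36 cells and 1 cell held 52.9% of its UMIs. Its cells differed by library: *rlbp1a* stood at 2873 CPM in 5 of 12 control cells and 140 CPM in 2 of 24 mutant cells. There *fabp7a*, a gene of the rule that chose the cells, stood at 35489 and 8793 CPM. Group 8 (17 control and 15 mutant cells) had 8 of 17 proneural and early neuronal genes raised. It was led by *vsx1* (599 CPM), a bipolar cell factor gene of the retina, *hes2.2* (237 CPM), *insm1a* (218 CPM) and *neurod4* (522 CPM). Group 10 (20 control and 3 mutant cells) had *zic1* (172 CPM) and *tenm3* (1048 CPM) among its leading genes, and no list had more than 3 of its genes raised in it.

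Cell cycle genes split the groups. Every member was thinned to 3000 UMIs, which left out 8 control and 7 mutant cells, and a cell was counted where it kept at least 3 UMIs of the list. For G2/M genes, 16 of 17 control and 14 of 14 mutant cells of group 8 were counted, and 19 of 33 cells of group 6. For S phase genes, 30 of 33 cells of group 6 were counted. The glial groups were at the other end. In group 2, 2 of 49 cells were counted for S phase and 0 for G2/M, and in groups 4, 7, 12 and 13 no control cell was counted for either list. In group 4, 3 of 10 mutant cells were counted for S phase. Of control members with at least 3 *gfap* UMIs after thinning, 5 of 75 (6.67%) were counted for G2/M, and of those with 0 *gfap* UMIs 63 of 213 (29.6%, 23.5 to 36.2).

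A larger share of the mutant members was counted for S phase. It was 32.9% of control members (100 of 304, 27.6 to 38.5) and 48.3% of mutant members (58 of 120, 39.1 to 57.6) after thinning, and 45.2% and 61.4% without it. For G2/M the shares were 22.7% (18.1 to 27.8) and 31.7% (23.5 to 40.8) after thinning, with intervals that overlap, and 29.5% and 42.5% without it. In the neural groups found in both libraries the thinned shares were 32.3% (25.3 to 40.0) and 58.3% (47.1 to 69.0) for S phase and 21.6% (15.6 to 28.6) and 34.5% (24.5 to 45.7) for G2/M. For S phase, 25 of 51 control and 21 of 28 mutant cells of group 1 were counted, 1 of 11 and 13 of 23 of group 5, and 13 of 17 and 12 of 14 of group 8. Groups 1 and 5 were divided at the finer clustering, so their shares need not compare 1 kind of cell. Group 3 ran the other way, with 10 of 25 control and 2 of 14 mutant cells counted. The phases rest on few transcripts per cell, and the part of free RNA in them was not tested.

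**Figure D3:**
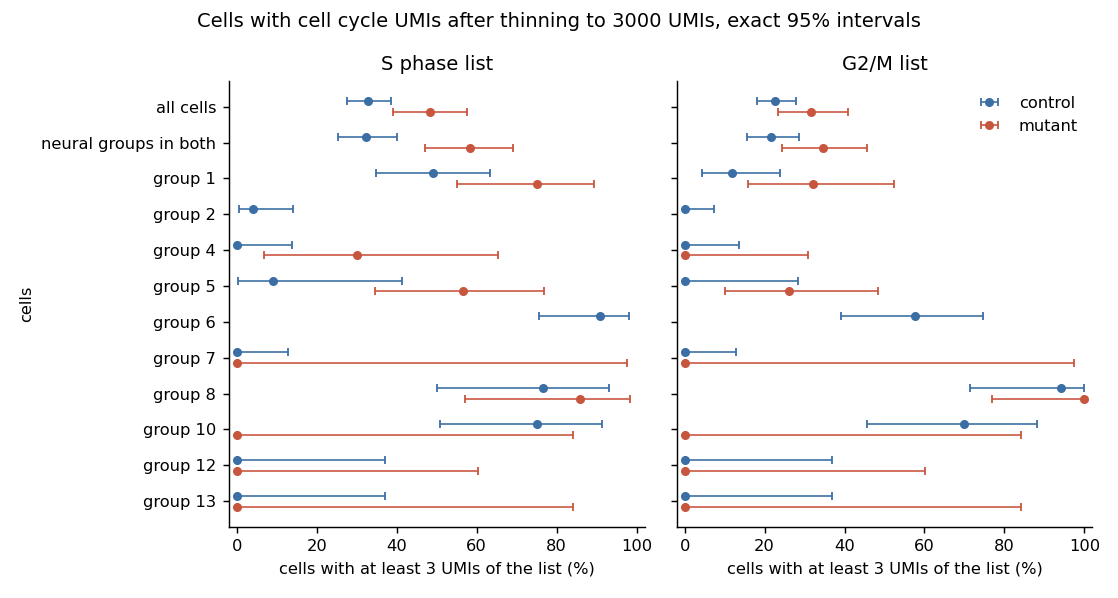
Share of cells (%) with at least 3 UMIs of the S phase or the G2/M list after thinning to 3000 UMIs, control and mutant, for all members, the neural groups found in both libraries and single groups, with exact 95% intervals. All members stand at 32.9% and 48.3% for S phase, group 8 is high in both libraries and group 2 is low.

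Levels were then compared between the libraries from the UMIs summed over members. Of 6654 genes with at least 100 UMIs, 629 were at least 2-fold higher in the mutant members (9.45%) and 1373 at least 2-fold lower (20.6%), with a median log2 ratio of -0.18. In the neural groups found in both libraries, of 3354 genes 231 were at least 2-fold higher (6.89%) and 579 at least 2-fold lower (17.3%), with a median of -0.026. These counts describe 2 libraries and carry no test of genotype.

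The ends of the ranking were set by globins and by single cells. Of the 10 lowest genes 7 were globin genes, such as *hbae3* with 29487 UMIs in control and 0 in mutant members. The other 3 were *BX005417.1*, the opsin gene *opn1sw1*, and *rgs5a*, a leading gene of group 2, which stood at 91.7 CPM in 56 control cells and 0.596 CPM, from 1 UMI, in the mutant members. The 10 highest were *tshba*, *si:ch211-270n8.1*, *cga*, *cabp5b*, *gh1*, *defbl1*, *si:dkeyp-73d8.6*, *si:dkey-33m11.8*, *si:dkey-4p15.5* and *si:dkeyp-73d8.9*. In the mutant library 1 cell held 99.6% of the *tshba*, 99.7% of the *cga*, 98.7% of the *gh1* and 97.3% of the *defbl1* UMIs. The others were spread wider. *si:ch211-270n8.1*, *si:dkeyp-73d8.6* and *si:dkeyp-73d8.9*, leading genes of group 9, were found in 14, 17 and 23 mutant cells. *si:dkey-33m11.8* and *si:dkey-4p15.5*, leading genes of group 3, were found in 6 and 17, and *cabp5b* in 9. In the neural groups found in both libraries *cga*, *tshba*, *gh1* and *defbl1* came first. Among the next genes were *atoh7* (7.41 and 144 CPM), *mycla* (17.9 and 111 CPM) and *ppp1r10* (106 CPM in 86 control cells and 558 CPM in 79 mutant cells).

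Radial glia genes were mostly lower in the mutant members. Of 17 measured genes (at least 10 UMIs), 2 were at least 2-fold higher and 7 at least 2-fold lower, with a median log2 ratio of -0.74. Over all 16533 genes with at least 10 UMIs, 11.6% were at least 2-fold higher and 24.7% at least 2-fold lower, with a median of -0.25. In bulk sums such as these, fewer cells of a kind and less RNA per cell cannot be told apart.

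The lowest of the list was *gfap*, with 10907 UMIs (2769.6 CPM) in control and 145 UMIs (86.4 CPM) in the mutant members, a log2 ratio of -5.00 (-5.25 to -4.77). It was found in 113 of 312 control members and 14 of 127 mutant members, and 1 cell held most of the mutant UMIs. After thinning, 75 of 304 control and 3 of 120 mutant members kept at least 3 *gfap* UMIs. Few such cells were found anywhere in the mutant library: before thinning, 199 of 17385 kept control cells (1.14%) and 11 of 8322 kept mutant cells (0.132%) had at least 3.

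Other glial genes lay between these extremes. The filament gene *vim* stood at 1046 CPM (control) and 141 CPM (mutant), and 1 cell held 55.7% of its mutant UMIs. *slc1a2b* stood at 1005 and 384 CPM, and *glula* at 960.3 and 502 CPM. The cell adhesion gene *hepacama* stood at 203 and 43.5 CPM and the growth factor gene *ptn* at 401 and 122 CPM. *slc1a3b*, at 103 and 95.3 CPM (log2 ratio -0.11, -0.38 to 0.16), and the lipid receptor gene *s1pr1*, at 94.2 and 93.0 CPM (-0.019, -0.30 to 0.25), did not differ beyond counting error. The genes at least 2-fold higher were *s100b* (20.8 and 47.7 CPM) and *fabp7b* (12.2 and 41.7 CPM), and 1 mutant cell held 50% of the *s100b* and 88.6% of the *fabp7b* UMIs.

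The size of the difference depended on which groups were counted. Over the neural groups found in both libraries the median of the radial glia list was -0.47, with 1 of 17 genes at least 2-fold higher and 6 at least 2-fold lower, where the shares over all 12905 genes were 8.96% and 23.6% and the median was -0.20. With groups 2 and 6 put back it was -0.024, with 1 gene higher and 5 lower, where 8.95% and 22.4% of 14374 genes were. There 269 of 4778 genes with at least 100 UMIs were at least 2-fold higher (5.63%) and 850 at least 2-fold lower (17.8%). Among cells of the neural groups found in both libraries *gfap* stood at 412 CPM (control) and 27.8 CPM (mutant) (-3.89, -4.57 to -3.28), with 46% of the control UMIs from 1 cell. There *slc1a2b* stood at 1795 and 813 CPM, and *cx43*, a gap junction gene, at 230.3 and 301 CPM. Group 3, many of whose control cells held *gfap*, is not among these groups. Within group 4, *glula* stood at 5456 and 5381 CPM and *slc1a2b* at 6178 and 4555 CPM. Within group 1, 0 of 15 genes were at least 2-fold higher and 9 at least 2-fold lower (median -2.28), where 14.9% and 27.4% of 8478 genes were. Of its 1088 genes with at least 100 UMIs, 169 were higher (15.5%) and 214 lower (19.7%) by that count. Both genes were over 6-fold lower in its mutant cells, *glula* at 316 and 47.8 CPM and *slc1a2b* at 585 and 73.2 CPM. Group 1 was divided unevenly between the libraries at the finer clustering, so these need not be differences within 1 kind of cell.

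Markers of other cells differed between the libraries too. The 11 erythrocyte genes summed to 25325 CPM in control and 27.4 CPM in mutant members, the 6 pigment genes to 282 and 2.98 CPM, and the 5 liver genes to 2979 and 35940 CPM. Within the neural groups found in both libraries the liver genes summed to 175 and 232 CPM, and the erythrocyte genes to 29018 and 36.7 CPM. With globin and mitochondrial genes taken out of the totals, the median of the radial glia list was -0.77. The part of free RNA from other cells in the differences was otherwise not tested. Of 17 heat shock genes 1 was at least 2-fold higher and 4 at least 2-fold lower (median -0.25, as for all genes), and of 18 immediate early genes, which cell dissociation can raise, 0 and 5 were (median -0.55). Both shares of lower genes were near the 24.7% of all genes. Yet 17 of the 18 immediate early genes had a ratio below 0, where 9869 of 16533 genes did. In the neural groups found in both libraries 14 of the 18 were below 0 (median -0.24), where the median of all genes was -0.20.

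**Figure D4:**
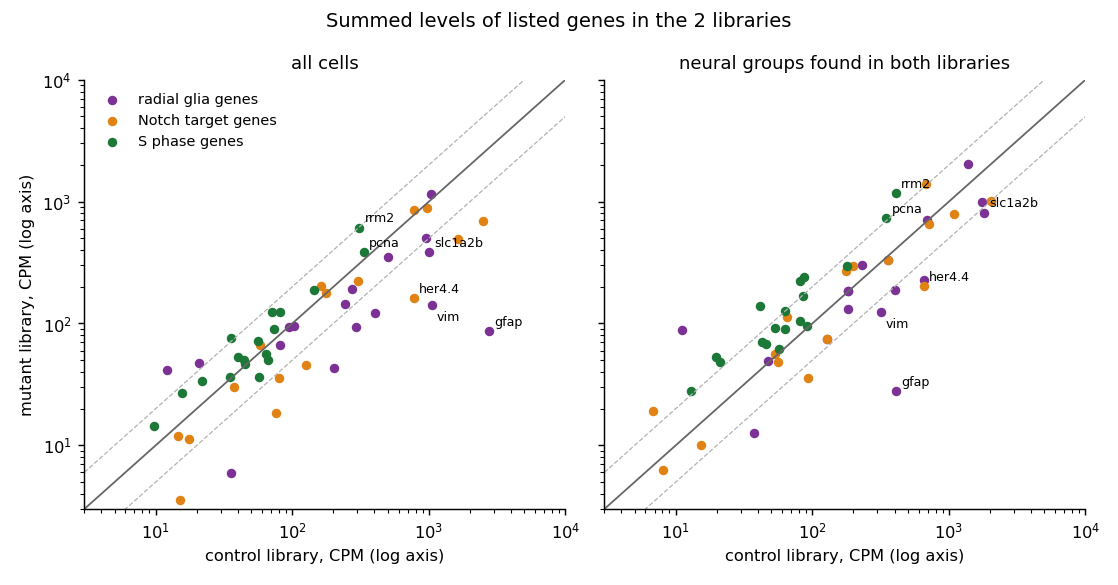
Level of each gene of the radial glia, Notch target and S phase lists (at least 10 UMIs) in the control library against the mutant library (CPM, log axes), for all members and for the neural groups found in both libraries. *gfap* lies far below the line of equal levels in both panels, and all 18 S phase genes lie above it in the panel of neural groups.

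Several Notch target genes are near-identical neighbouring copies, so that single copies are uncertain. In the RefSeq gene table (assembly GRCz12tu) *her12*, *her4.2*, *her4.1*, *her4.3* and *her4.4* lie in a row, and so do *her2*, *her15.1* and *her15.2*. The UMIs of the copies were divided differently in the libraries. Of the *her15.1* and *her15.2* UMIs, *her15.2* took 62.5% in control members (61.6 to 63.5) and 35.5% in mutant members (33.6 to 37.5). It differed in the other kept cells too, at 60.8% (60.1 to 61.6) and 23.7% (22.9 to 24.5). Of the *her4.1* and *her4.4* UMIs, *her4.4* took 34.7% in control and 15.8% in mutant members, and 24.8% and 17.5% in the other kept cells. Of the *her4.1* and *her4.2* UMIs, *her4.2* took 63.2% in control and 44.9% in mutant members. In the other kept cells that pair was divided nearly alike, at 58.8% and 57.5%. As *her4.1* is a gene of the rule, its splits in the members describe cells chosen in part by that gene. The matrices were made with different versions of the counting software, and this cannot be told apart from the genotype.

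**Figure D5:**
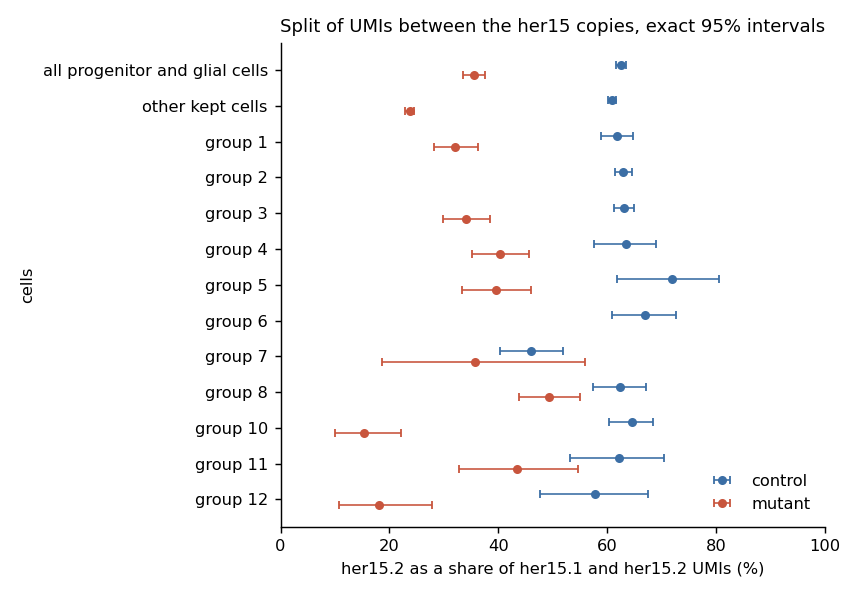
Share of *her15.1* and *her15.2* UMIs counted as *her15.2* (%), control and mutant, in all members, in the other kept cells and in single groups, with exact 95% intervals. The share was lower in the mutant library in the members (62.5% and 35.5%) and in the other kept cells (60.8% and 23.7%).

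Copies were therefore summed. The *her4* copies, *her4.1* to *her4.4*, stood at 4867.5 CPM (control) and 1763 CPM (mutant) in all members, a log2 ratio of -1.47 (-1.52 to -1.41). As *her4.1* is a gene of the rule, the *her4* sums here and by group describe cells chosen in part by that gene. The *her15* copies stood at 2596 and 1384 CPM (-0.91, -0.97 to -0.84). Group 2 alone held the *her4* copies at 13146 CPM, against 129 CPM in group 6. For the neural groups found in both libraries the *her4* copies were lower in the mutant cells, at 4157 and 2679 CPM (-0.63, -0.70 to -0.56), while the *her15* copies were higher, at 1763 and 2185 CPM (0.31, 0.22 to 0.40).

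Single groups ran both ways. The *her4* sum was lower in the mutant cells of group 1 (4356 and 2579 CPM) and group 8 (1715 and 678 CPM). It was higher in those of group 4 (6178 and 7474 CPM), where the *her15* sum was higher too, at 1438 and 3180.1 CPM. In the other kept cells both sums were higher in the mutant library, at 128 and 147 CPM for *her4* and 94.0 and 141 CPM for *her15*.

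Of the 16 measured Notch target genes, 0 were at least 2-fold higher and 7 at least 2-fold lower in all mutant members (median -0.54), where 11.6% and 24.7% of all genes were. Over the neural groups found in both libraries 2 and 3 were (median -0.17), a share of lower genes under the 23.6% of all genes and a median near their -0.20. These counts and medians take each copy as a gene of its own. Among the 7 lower in all members were the uncertain copies *her4.2*, *her4.3*, *her4.4* and *her15.2*. Of targets with no such copy beside them, the repressor gene *her6* stood at 783 and 859 CPM in all members and *her9* at 305 and 225 CPM. *nrarpa*, a feedback inhibitor gene of the pathway, stood at 176 and 177 CPM (0.0062, -0.19 to 0.20) in all members but higher in mutant cells of the neural groups found in both libraries, at 199 and 294 CPM (0.56, 0.31 to 0.81). The repressor gene *hey1* stood at 79.7 and 35.8 CPM, and in group 2 at 309.6 CPM in 42 of 50 cells. Among cells of the neural groups found in both libraries it stood at 56.2 and 48.1 CPM (-0.22, -0.81 to 0.34).

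The ligand, receptor and modifier genes of the pathway lay nearer to all genes. Of 19 genes 3 were at least 2-fold higher and 4 at least 2-fold lower in all mutant members, with a median of -0.27, where 11.6% and 24.7% of all genes were and their median was -0.25. The receptor gene *notch3* stood at 153 and 116 CPM, and in the neural groups found in both libraries at 215 and 210.1 CPM (-0.032, -0.31 to 0.24). The ligand gene *dla* stood at 79.5 and 128 CPM (0.68, 0.42 to 0.94). It was highest in group 8, at 504 CPM in 14 of 17 control cells and 1699 CPM in 14 of 15 mutant cells. *lfng*, which encodes an enzyme that modifies the receptor, stood at 174 and 276.5 CPM (0.67, 0.49 to 0.84).

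Proneural and early neuronal genes were mostly higher in the mutant members. Of 12 measured genes 6 were at least 2-fold higher and 2 at least 2-fold lower (median 1.01), where 11.6% and 24.7% of all genes were. In the neural groups found in both libraries 7 and 3 of 11 were (median 1.77), where 8.96% and 23.6% of all genes were. *neurod4*, a factor gene of cells becoming neurons, stood at 18.8 CPM in 20 control cells and 79.9 CPM in 22 mutant cells (2.09, 1.67 to 2.52). *insm1a*, a zinc finger factor gene of such cells, stood at 5.33 and 38.1 CPM, and the retinal factor gene *atoh7* at 8.13 and 69.1 CPM. The lower genes were *ascl1b* (13.7 and 1.19 CPM) and *neurog1* (59 and 6 UMIs), and in the neural groups found in both libraries *neurog1* had 3 and 6 UMIs.

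These genes came from few cells. Of the *neurod4* UMIs, 41 of 74 (control) and 100 of 134 (mutant) lay in group 8. There *neurod4* stood at 243 CPM in 6 of 17 control cells and 982 CPM in 14 of 15 mutant cells, and *atoh7* at 41.5 CPM in 2 cells and 658 CPM in 8 cells. After thinning, 7 of 304 control members (2.30%, 0.931 to 4.69) and 13 of 120 mutant members (10.8%, 5.90 to 17.8) kept at least 3 UMIs of *neurod4* and *vsx1* together.

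Genes of S phase differed less in all members than in the neural groups found in both libraries. In all members 15 of 18 had a ratio above 0, and 1 was at least 2-fold higher (median 0.35), a share under the 11.6% of all genes. Within the neural groups found in both libraries all 18 were above 0 and 8 at least 2-fold higher (median 0.98), where 8.96% of all genes were. The makeup of these groups still differed between the libraries, as in group 5 (12 control and 24 mutant cells) and group 7 (29 and 3). There the replication clamp gene *pcna* stood at 347 and 730.3 CPM (1.07, 0.90 to 1.24), and *rrm2*, a subunit gene of ribonucleotide reductase, at 409 and 1167 CPM (1.51, 1.37 to 1.66). The helicase genes *mcm6* (149 and 76 UMIs, log2 ratio 0.064, -0.35 to 0.47) and *mcm7* (57.4 and 62.0 CPM) did not differ beyond counting error. By group, *pcna* was higher in the mutant cells of group 1 (388 and 1054 CPM) and group 5 (113 and 993 CPM) and lower in those of group 8 (682 and 393 CPM). As groups 1 and 5 were divided at the finer clustering, their differences need not lie within 1 kind of cell.

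G2/M genes differed less, with 1 of 20 at least 2-fold higher in all members (median 0.19), under the 11.6% of all genes. For the neural groups found in both libraries it was 1 of 20 too (median 0.44), under the 8.96% of all genes there. In those groups the proliferation marker gene *mki67* stood at 231 and 308 CPM and the mitotic cyclin gene *ccnb1* at 15.4 and 63.3 CPM. Neuroepithelial genes ran both ways there, with 3 of 14 at least 2-fold higher and 5 at least 2-fold lower (median -0.21), where 8.96% and 23.6% of all genes were. The higher ones were the chromatin protein genes *hmgb2a* (1203 and 3173 CPM) and *hmga1a* (1426 and 2950.3 CPM) and the factor gene *sox9b* (24.7 and 73.4 CPM). The lower ones were *msi2b* (323 and 154 CPM), *nes*, *sox1a*, *sox1b* and *zic2a*.

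Genes of hindbrain and spinal position were mostly lower in the mutant members. Of 13 measured hindbrain and spinal genes 0 were at least 2-fold higher and 10 at least 2-fold lower (median -1.88), where 11.6% and 24.7% of all genes were. *hoxb8a* stood at 63.0 CPM in 54 control cells and 2.98 CPM in 3 mutant cells, and *hoxb9a* at 49.0 CPM in 51 and 2.38 CPM in 3 cells. Of these UMIs, 182 of 248 of *hoxb8a* and 157 of 193 of *hoxb9a* in the control library came from group 2. Members included, 68 of 8322 kept mutant cells and 287 of 17385 kept control cells had at least 3 UMIs of *hoxb8a*, *hoxb9a*, *hoxc6b* and *hoxc9a* together. Of these cells 1 mutant and 52 control cells were members. Which kinds of cell the others were was not tested.

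Sonic hedgehog response genes were lower in all mutant members, 4 of 7 at least 2-fold (median -1.88), where 24.7% of all genes were. In the neural groups found in both libraries 3 of 7 were (median -0.36), where 23.6% of all genes were and their median was -0.20. The receptor gene *ptch1* stood at 96.5 and 20.3 CPM in all members and at 82.1 and 32.9 CPM in those groups (-1.32, -1.99 to -0.70). The effector gene *gli1* stood at 58.4 and 8.34 CPM in all members. Of 8 BMP response genes 2 were at least 2-fold higher in all members, where 11.6% of all genes were, among them *bambia*, the gene of a decoy receptor, at 14.5 CPM in 36 control cells and 73.3 CPM in 53 mutant cells (2.34, 1.88 to 2.82). It stood at 14.2 and 70.9 CPM in the neural groups found in both libraries.

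The targeted gene *hsd17b7* was not lower in the mutant members. It had 108 UMIs (27.4 CPM) in control and 81 UMIs (48.3 CPM) in the mutant members, and was found in 59 and 33 cells. For the neural groups found in both libraries it stood at 33.3 and 41.8 CPM (0.33, -0.35 to 0.98). The libraries count the end of the transcript, and the edited exon lies upstream of it, so these levels do not check the label. Hair cells held more of it, at 163 and 284 CPM.

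Of 22 measured cholesterol synthesis genes 7 were at least 2-fold higher and 0 at least 2-fold lower in all mutant members (median 0.51), where 11.6% and 24.7% of all genes were. Among cells of the neural groups found in both libraries 3 of 21 were higher and 3 lower (median 0.33), where 8.96% and 23.6% of all genes were. The demethylase gene *cyp51* stood at 6.09 and 33.4 CPM in all members and at 4.32 and 20.3 CPM in those groups, from 7 and 16 UMIs. The rate-limiting reductase gene *hmgcra* stood at 5.08 and 18.5 CPM in all members. In cells outside the members the median of the same genes was 1.18 in hair cells, 1.38 in liver cells and -0.022 in cells with at least 3 *elavl3* UMIs and 0 of *fabp7a*, where all genes stood at -0.22, -0.31 and -0.27.

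Of 10 sterol transport genes 6 were at least 2-fold lower and 1 at least 2-fold higher in all mutant members (median -1.21), where 24.7% and 11.6% of all genes were. The higher gene was *apoeb*, with 79.2% of its mutant UMIs from 1 cell. Of 9 measured in the neural groups found in both libraries 5 were lower and 0 higher (median -1.19), where 23.6% and 8.96% of all genes were. The cholesterol exporter gene *abca1a* stood at 249 CPM in 235 control cells and 124 CPM in 51 mutant cells. Over the neural groups found in both libraries it stood at 273.5 and 54.4 CPM (-2.33, -2.82 to -1.88). *srebf1*, the gene of a factor that drives lipid synthesis, stood at 34.3 and 6.56 CPM in all members and at 43.8 and 6.33 CPM in those groups. Of 7 measured sterol regulator genes 0 were at least 2-fold higher and 3 at least 2-fold lower in all members. The shares over all genes were 11.6% and 24.7%. The median of the 7 was -0.27, near the -0.25 of all genes. In those groups 0 and 3 of 7 were too, where 8.96% and 23.6% of all genes were. The median of the 7 there was -0.54 and that of all genes -0.20.

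The members held little of the reporter. *mGFP* stood at 23.6 CPM in 31 control members and 128 CPM in 23 mutant members, against 682 and 1146 CPM in hair cells. Most of it lay in groups 3 and 9, with 62 and 2 of the 93 control UMIs and 131 and 75 of the 214 mutant UMIs. Among cells of the neural groups found in both libraries it stood at 8.64 and 10.1 CPM, near the 9.05 and 10.9 CPM of liver cells. The source of these UMIs was not tested. The 15 hair cell genes summed to 539 and 1396 CPM in all members and to 96.9 and 142 CPM in those groups.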

How the data were processed

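The 10x Genomics 3′ libraries, 1 per genotype, were analysed. Per the labels, the authors made the deposited UMI count matrices with Cell Ranger on GRCz11; the file headers name version 7.1.0 (control) and 9.0.1 (mutant). The libraries held 180590990 and 81920586 UMIs in 19270 and 10119 barcodes. Features sharing a symbol were summed. Members were clustered with scanpy 1.11.5 and leidenalg 0.10.2 (20 components, 15 neighbours, resolution 1) in Python 3.11.15. Counts were summed over members and divided by their total. With 1 library per genotype no test was run: ratios have exact conditional binomial, shares Clopper-Pearson and levels Poisson 95% intervals, and a count of 0 enters ratios as 3 UMIs. Named genes were the 10 highest and 10 lowest ratios at 100 UMIs or more, the 20 leading genes against other cells, the 5 leading genes of a group (at least 50 UMIs and 100 CPM) and genes of lists. The same ranking, applied to the neural groups found in both libraries, named *mycla* and *ppp1r10*. Members and lists were chosen with earlier results of these data known. The study gated doublets out at the sort. Scrublet's automatic threshold marked 0 kept control cells and 1 kept mutant cell, so it had not worked and no member was removed. Scripts were tested on simulated data. Alternatives changed the rule, depth, filter, scaling and groups. Some leading genes of groups are not reported here.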

Additional observations from a re-analysis of the deposited data

How the results depend on the processing

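No paired analysis was possible because each genotype had 1 library. Of the values recomputed under alternatives, 69 moved by less than their counting interval or, for counts of genes and groups, by under 1.5 times. Another 49 moved by more and 3 others changed sign, and the cause was not tested. Among the 49 is the cholesterol synthesis median in group 1, whose sign changed as well. The 69 include every value under Scrublet's automatic threshold, which removed no member and so could not change any of them. The member share (control and mutant) became 2.67% and 2.68% at 1 *fabp7a* UMI or more, 1.45% and 1.21% with the rule applied after thinning and 2.74% in the control library without globin-rich cells. Genes at least 2-fold higher and lower numbered 1253 and 2764 at 30 UMIs or more, 272 and 564 at 300 or more, and 176 and 398 after thinning. Thinning took the list medians to -1.12 (radial glia), 0.90 (S phase), 0.88 (G2/M) and -0.063 (heat shock, -0.25 before). Centring on the median gave -0.36 (Notch targets) and -0.069 (heat shock), the mean of cells' CPM -0.25, 0.68 (S phase) and -0.017, and 5 *fabp7a* UMIs or more -0.82 and -0.30. Thinned cell cycle shares were 32.9% and 48.3% (S phase) and 22.7% and 31.7% (G2/M), and 5 UMIs of the list gave 38.5% of control members for S phase. The rest were chosen after seeing the data. Without groups 3, 9, 11 and 14 the share was 1.48% and 1.09%, the gene counts 269 (5.63%) and 850 (17.8%), and the medians -0.024 (radial glia), -0.24 (Notch targets), 0.89 (S phase) and 0.090 (heat shock, sign changed). Without groups 2 and 6 as well, they were 231 and 579, and -0.47, -0.17, 0.98 and -0.049. In group 1 alone, they were 169 (15.5%) and 214 (19.7%), and -2.28, 0.28 (sign changed), 1.28 and 0.16 (sign changed), with 1.24 for G2/M and -0.42 for cholesterol synthesis (sign changed, 0.51 before). Without the 8% of cells with the highest Scrublet scores, medians were -0.51 (radial glia), 0.67 (S phase) and -0.15 (heat shock). Small groups and genes with few UMIs limit what this depth can show.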
